A study of Mus musculus with 4 samples.

Results

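Skin of Egr1 knockout (KO) mice treated with house dust mite (HDM) extract was compared with skin of naive Egr1 KO mice. The comparison rests on 2 of the 4 libraries of the study, 1 per group, and on the difference between the log2 values deposited for each gene. Of 23203 gene symbols that stood on a single line of the tables, 7673 had a log2 value of 8 or more in at least one of both libraries and were kept. Of these, 122 were at 0 in the KO naive library and are described apart, since that library lacked many low-level genes. The remaining 7551 were compared. All mice were adult C57BL/6. The KO-labelled groups carried the Egr1-/- genotype, determined by PCR, and the other 2 groups were wild type (WT, Egr1+/+). By the treatment label the naive groups received sodium dodecyl sulfate (SDS), a detergent that strips surface lipids, so SDS was common to all groups. The HDM groups also received 100 mg of HDM cream, 2 times per week for 3 weeks, on the neck and both ears after hair removal. No tissue-specific driver is named, and which stretch of Egr1 was disrupted is not given in the sources used here. RNA was profiled by a 3′ method, which reads the end of each polyadenylated transcript.

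EGR1 is a zinc finger transcription factor that cells switch on within minutes of growth factor, cytokine or injury signals, and it binds GC-rich promoter sites. House dust mite extract carries proteases and allergens that act on keratinocytes and on the immune cells of the dermis, and repeated use on barrier-damaged skin is a model of atopic dermatitis. Inflamed or wounded epidermis is known to replace part of its normal differentiation programme with a stress programme of alternative keratins, small proline-rich proteins, calprotectin and protease inhibitors.

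With 1 library per group there is no replicate, no test and no p-value: every difference compares those libraries, not the conditions, and whether animals were pooled is not given in the sources used here. A log2 difference of at least 1, which is 2-fold, is called higher or lower below. Values joined by "to" are log2 values in KO naive, then KO HDM, and those given for WT are WT naive, then WT HDM. Intervals on a fold are exact 95% intervals on the ratio of recovered reads and cover counting error only, since reads were not tied to molecules. Where one library had no read, 3 reads were entered for it and the fold is worded as at least that size. The libraries held between 9443411 and 10128440 recovered reads, so depth was alike, but 12857 genes had a read in KO naive against 16175 in KO HDM and 15524 and 16512 in the WT libraries. In KO naive 336 genes stood at 0 that had 50 or more reads in each other library, and this number was 0 to 5 elsewhere. Among genes at a log2 value of 5 to 6 in WT naive, 32.7% were at 0 in KO naive, and at 8 to 9 this was 0.993%. Egr1 itself stood at 11.53 in the naive and 11.68 in the HDM library (3158 and 3493 reads), against 11.02 and 10.31 in WT naive and WT HDM, so it was not lower in the KO-labelled libraries. The disruption may leave the transcript's 3′ end intact, in which case this level checks no label. Artn, the neurotrophic factor artemin of the series title, had 0 reads in KO naive and 5 in KO HDM, which is too few to compare. Xist, the X-inactivation RNA of female cells, stood at 5.26 in the naive and 11.16 in the HDM library, and Y-linked Ddx3y at 11.15 in the naive and 0.94 in the HDM library. The WT pair showed the same split, so animal sex and treatment cannot be told apart in either genotype. Epidermal markers (Krt5, Krt14, Krt1, Krt10, Lor, Dsp, Trp63), fibroblast markers (Col1a1, Col3a1, Dcn, Lum) and the leukocyte marker Ptprc were present in both KO-labelled libraries, as the label skin implies.

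Over the 7551 compared genes the median difference, KO HDM minus KO naive, was 0.014 on the log2 scale, with quartiles of -0.74 and 0.753. Higher in KO HDM by 2-fold or more were 1434 genes (19.0%), lower were 1412 (18.7%), and 4705 were within 2-fold. At 4-fold, 439 (5.81%) were higher and 456 (6.04%) lower. The level filter bears on these numbers: 1374 of the 7673 kept genes reached 8 only in the HDM library and 1265 only in the naive library, so their direction was fixed by the filter, and 5034 reached it in both. Counts over kept members of a gene list are therefore descriptions, to be read against 19.0% and 18.7%. The genes nearest the limit show what it means. Just inside, Anln stood at 6.505 and 8.002, Cdca7l at 5.993 and 8.002 and Rnf139 at 7.162 and 8.002 (naive, then HDM). Just outside, Gjc1 stood at 7.998 and 6.704, Ccnt2 at 7.998 and 6.353 and Tcirg1 at 7.998 and 7.881. When the filter was taken from the WT libraries instead, 1487 genes were higher and 982 lower. When WT naive took the place of KO naive, 844 were higher and 748 lower, so the counts depend on which naive library is used.

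**Figure D1:**
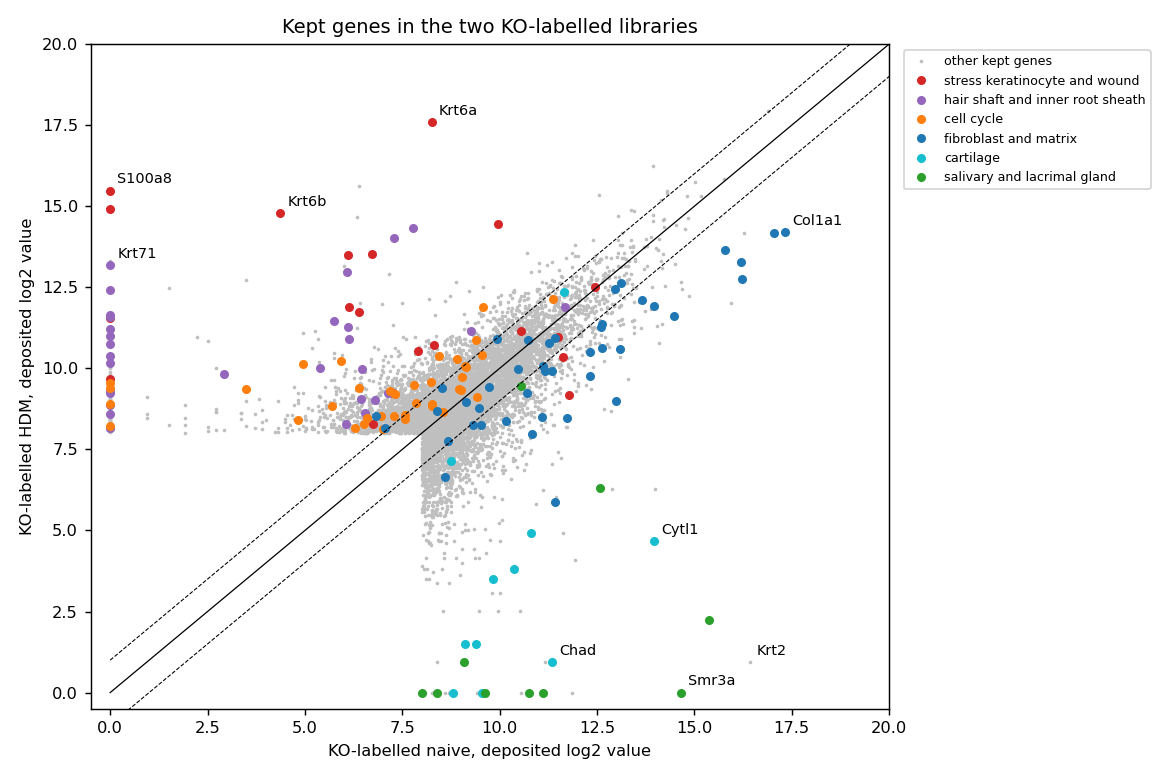
Kept genes by their deposited log2 value in the KO-labelled naive library (horizontal) and the KO-labelled HDM library (vertical), 1 point per gene. The solid line marks equal values and the dashed lines a 2-fold difference. Krt6a (8.25 and 17.59) and Krt6b stand far above the line, Krt2 (16.42 and 0.94), Smr3a and Chad far below it, and the column of points at 0 on the horizontal axis holds the 122 genes at 0 in KO naive, led by S100a8.

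The stress keratins stood at the top of the comparison. Krt6a, the keratin of wounded and hyperproliferative epidermis, was at 8.25 in the naive and 17.59 in the HDM library (324 and 209385 reads), 648-fold (95% counting interval 581 to 725) higher. Its neighbour and close relative Krt6b was at 4.37 in the naive and 14.79 in the HDM library, 1439-fold (95% counting interval 941 to 2325) higher, with 21 reads in the naive library. Their type I partner Krt16 was at 6.72 in the naive and 13.52 in the HDM library, and Krt17, also of stressed and follicular keratinocytes, at 9.95 in the naive and 14.44 in the HDM library. All 4 were lower in naive than in HDM skin and were detected in both libraries. Krt6a and Krt6b are near-identical copies, and reads could be split between them. Gjb2, the connexin 26 gap junction subunit that is scarce in resting interfollicular epidermis, was at 6.09 in the naive and 13.51 in the HDM library, 173-fold (95% counting interval 137 to 221) higher. Its sister connexin Gjb6 had 0 reads in the naive and 860 in the HDM library, at least 288-fold. Hbegf, a membrane-tethered EGF receptor ligand, was 3.93-fold (95% counting interval 3.3 to 4.69) higher. Of 32 listed stress and wound genes 20 were kept, 4 of them at 0 in KO naive. Of these 20, 12 reached the filter only in the HDM library. Among the 16 compared, 11 were higher and 2 lower, with a median difference of 2.52. The lower pair was Ecm1, a secreted matrix protein (11.78 to 9.17), and Tnc, the matrix protein tenascin-C.

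S100a8 and S100a9 encode the subunits of calprotectin, a calcium- and zinc-binding protein of neutrophils and of inflamed keratinocytes. S100a8 had 0 reads in KO naive and 48705 in KO HDM, at least 16287-fold, and S100a9 0 and 32672, at least 10926-fold. In WT naive the same genes stood at 7.57 and 8.43 on the log2 scale, so these at-least folds rest on a library that lacked transcripts seen in its WT counterpart. Of the 122 genes at 0 in KO naive, 32 were at 7 or more in WT naive, and 95 were 2-fold or more higher in WT HDM than in WT naive, 26 within 2-fold and 1 lower. In KO HDM each had 278 reads or more, at least 93.0-fold above the floor. These 122 include no gene that could have come out lower.

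The epidermal differentiation complex on chromosome 3 gathers the S100, small proline-rich (Sprr), late cornified envelope (Lce), loricrin and filaggrin-type genes whose products build the dead outer shell of the epidermis. Its 48 kept genes, from S100a1 to S100a11 (chr3:90511034-93526287, GRCm38), went both ways: 11 were higher, 22 lower, 4 within 2-fold and 11 at 0 in KO naive. All higher genes but S100a14 and S100a16, and all those at 0, reached the filter only in the HDM library. Lce6a, Lce1e, Lce1h, Lce1i, Lce1j, Lce1k, Lce1l and Lce1m reached it only in the naive library. The direction of these genes was thus fixed by the filter. The S100 genes were mixed, with S100a3 (6.12 to 11.28), S100a14 and S100a16 higher, S100a1, S100a4 and S100a13 lower, S100a6 and S100a11 within 2-fold and S100a8 and S100a9 at 0 in KO naive. The Sprr and Lce3 genes, which inflamed epidermis is known to use, stood high in KO HDM. Sprr1a was at 7.15 in the naive and 12.89 in the HDM library, 53.8-fold (95% counting interval 45.8 to 63.6) higher, and Sprr1b at 6.13 in the naive and 11.89 in the HDM library. The Sprr2 copies Sprr2a2 (3.49 to 12.73) and Sprr2a3 (2.24 to 10.97) were also higher. A further 5 Sprr2 genes had no read in KO naive, among them Sprr2d with 3190 reads in KO HDM (at least 1067-fold). Lce3c stood at 2.72 in the naive and 9.99 in the HDM library, and Lce3a, Lce3d and Lce3f were at 0 in KO naive and between 8.64 and 8.74 in KO HDM. Sprr2 genes share much sequence, so their reads may be split among copies. The genes of the normal cornified layer stood the other way. Loricrin (Lor), its main structural protein, was at 15.93 in the naive and 12.002 in the HDM library and Flg2 at 12.85 in the naive and 8.69 in the HDM library, 17.9-fold (95% counting interval 16.3 to 19.8) lower. All Lce1 genes kept but Lce1k (-0.56, within 2-fold) were lower, from Lce1j (9.35 to 7.98) to Lce1m (11.63 to 4.91, 109-fold lower, interval 76.7 to 161). Involucrin (Ivl), an early envelope protein, was within 2-fold at 9.56 in the naive and 9.84 in the HDM library. Among the 35 kept genes of the cornified envelope list, 12 reached the filter only in the HDM library and 6 only in the naive library. Over its 27 compared genes the median was -1.78, with 7 higher and 16 lower. With the 8 members at 0 in KO naive entered at 3 reads, this median was 0.037, so its sign depends on how those genes are treated.

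**Figure D2:**
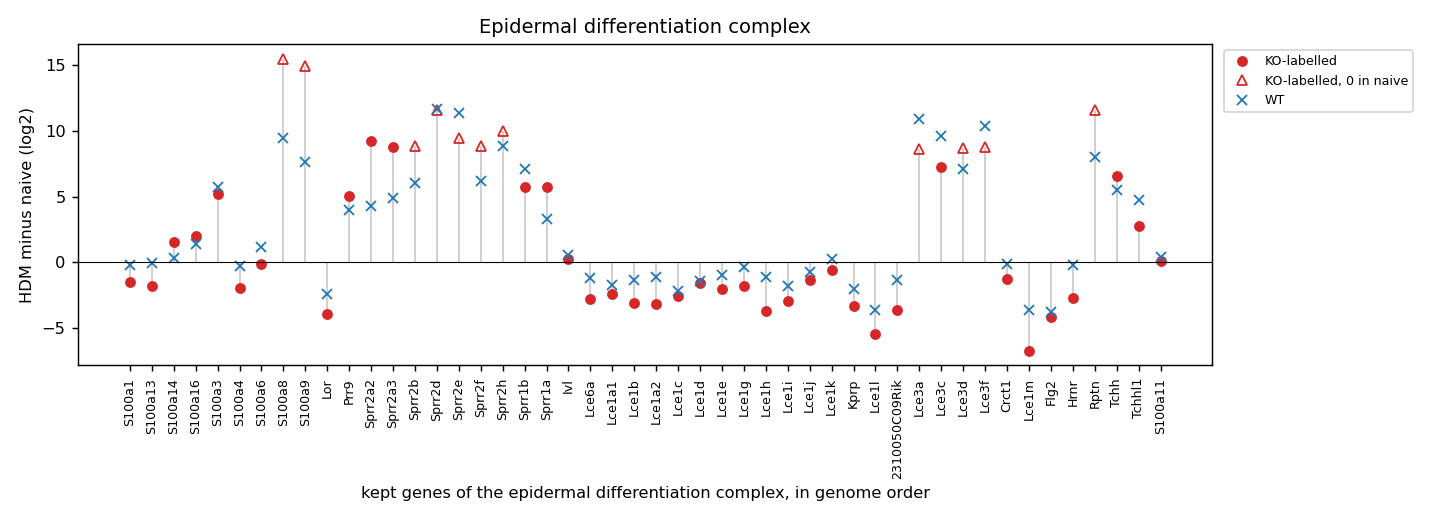
The 48 kept genes of the epidermal differentiation complex in chromosomal order (horizontal, by rank, not distance) against the log2 difference KO HDM minus KO naive (vertical). Filled circles are KO-labelled differences, triangles those of genes at 0 in KO naive, and crosses WT HDM minus WT naive. Sprr, Lce3 and trichohyalin-type genes lie above 0 and the Lce1 block, Lor, Kprp and Flg2 below it.

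The promoter windows of genes on both sides of this split are shown because they sit within the same complex and yet the transcripts stood in opposite directions. RefSeq windows of GRCm38.p6, from 250 bases before to 50 bases after the start, were searched on both strands for TGANTCA, the core of the AP-1 site bound by FOS and JUN dimers, and for GCGNGGGCG, the EGR site. The windows lie at chr3:92485832-92486131 for Sprr1a, chr3:92438730-92439029 for Sprr1b, chr3:92083093-92083392 for Lor and chr3:93019012-93019311 for Lce1m, all on the minus strand, and at chr3:92338890-92339189 for Sprr2d and chr3:92944236-92944535 for Lce3c on the plus strand. Capitals mark each AP-1 match, and the sequences run 5′ to 3′ along the gene's strand.
Sprr1a: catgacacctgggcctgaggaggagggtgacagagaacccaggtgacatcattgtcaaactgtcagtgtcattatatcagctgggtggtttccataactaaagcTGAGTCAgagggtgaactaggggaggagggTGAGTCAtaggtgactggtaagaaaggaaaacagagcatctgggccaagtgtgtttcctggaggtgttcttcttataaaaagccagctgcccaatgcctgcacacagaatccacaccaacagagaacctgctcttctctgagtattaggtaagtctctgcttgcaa
Sprr1b: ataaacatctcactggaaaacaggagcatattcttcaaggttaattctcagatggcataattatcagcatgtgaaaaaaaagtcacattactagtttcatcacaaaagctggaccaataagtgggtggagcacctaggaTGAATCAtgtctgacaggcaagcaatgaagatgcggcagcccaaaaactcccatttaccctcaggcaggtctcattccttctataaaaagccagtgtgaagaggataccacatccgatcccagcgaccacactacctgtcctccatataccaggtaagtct
Sprr2d: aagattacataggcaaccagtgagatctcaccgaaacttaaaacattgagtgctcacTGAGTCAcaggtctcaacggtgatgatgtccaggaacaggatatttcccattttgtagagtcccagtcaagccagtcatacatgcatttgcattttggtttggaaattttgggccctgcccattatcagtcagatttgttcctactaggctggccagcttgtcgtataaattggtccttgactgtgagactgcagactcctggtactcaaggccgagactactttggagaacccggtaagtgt
Lce3c: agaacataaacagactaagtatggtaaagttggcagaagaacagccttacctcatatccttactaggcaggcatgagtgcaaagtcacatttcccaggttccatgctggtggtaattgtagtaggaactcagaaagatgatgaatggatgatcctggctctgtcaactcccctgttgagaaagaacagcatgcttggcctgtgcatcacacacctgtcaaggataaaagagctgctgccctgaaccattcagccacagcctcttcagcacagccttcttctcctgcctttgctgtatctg
Lor: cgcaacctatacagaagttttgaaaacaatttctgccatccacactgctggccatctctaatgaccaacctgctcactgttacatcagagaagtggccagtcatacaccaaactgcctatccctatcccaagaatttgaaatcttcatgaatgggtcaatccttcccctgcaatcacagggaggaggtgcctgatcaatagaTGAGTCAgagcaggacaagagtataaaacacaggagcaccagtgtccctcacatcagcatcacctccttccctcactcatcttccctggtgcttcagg
Lce1m: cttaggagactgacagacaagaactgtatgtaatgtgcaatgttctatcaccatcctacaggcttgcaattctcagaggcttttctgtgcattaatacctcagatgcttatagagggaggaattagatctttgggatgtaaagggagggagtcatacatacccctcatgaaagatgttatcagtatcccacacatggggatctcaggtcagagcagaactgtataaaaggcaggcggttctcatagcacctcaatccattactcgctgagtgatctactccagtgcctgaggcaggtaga
None of these windows held the EGR letters. Sprr1a held 2 AP-1 matches, Sprr1b, Sprr2d and Lor 1 each, and Lce3c and Lce1m 0. Lor thus carried the motif although its transcript was lower, and Lce3c lacked it although its transcript was higher. In the complex, the motif was in 5 of 10 windows of higher genes, 6 of 11 of genes at 0 in KO naive, 2 of 20 of lower genes and 2 of 4 of genes within 2-fold. Over all windows of the complex it was in 15 of 45, which is the share to read these against. The share over all 27025 RefSeq promoters was 8.97% for AP-1 and 6.27% for EGR. Over all kept genes with a window it was 6.83% for AP-1 and 12.87% for EGR. Copies within a family share sequence, so these windows are not independent, and a match is a description of letters, not of a bound site.
Across the 5899 kept genes with a window, the EGR letters were in 12.3% of those higher, 12.5% of those lower and 13.4% of those within 2-fold, with median GC contents of 60.7%, 59.4% and 61.7%. For the AP-1 letters the shares were 7.72%, 7.58% and 6.15%. Among the 105 genes at 0 in KO naive with a window, 3.81% held EGR and 13.3% AP-1 letters, with a median GC content of 48.2%.

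Krt2, the keratin of the upper spinous and granular layers of ear and tail epidermis, had the largest negative difference of the 7551 genes. It had 93547 reads in KO naive and 1 read in KO HDM, log2 values of 16.42 to 0.94. That is 93248-fold (95% counting interval 16736 to 3683143) lower. In WT skin Krt2 stood at 15.98 and 12.24, a smaller difference. Its differentiation relatives Krt1 and Krt10 did not stand in one direction. Krt1, of the suprabasal layers, was at 8.87 in the naive and 12.65 in the HDM library and its partner Krt10 at 13.09 in the naive and 11.92 in the HDM library, so Krt1 was higher and Krt10 lower by 2-fold or more. Krt10 differed in WT the other way (13.52 and 14.53). Krt2 lies at 101 to 102 Mb of chromosome 15 among keratin genes, where 8 of 15 kept genes were 4-fold or more higher, 2 were at 0 in KO naive and Krt2 was the 1 lower by as much. Its level near 0 in 1 library has no replicate check.

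Basal layer genes divided evenly. Of 18 compared, 6 were higher, 6 lower and 6 within 2-fold, with a median of 0.15. The basal keratins Krt5 (13.95 to 16.23) and Krt14 (12.54 to 15.33, 6.9-fold, interval 6.72 to 7.09) were higher, as were the integrin subunits Itga3 (5.74 to 9.02) and Itga6 (10.50 to 12.07) that anchor cells to laminin. Itga3 reached the filter only in the HDM library, and in WT it was within 2-fold at 8.06 and 8.365. Krt15, a keratin of resting basal and bulge cells, was lower (13.16 to 11.37), and so were Col17a1, a hemidesmosome collagen (12.11 to 10.42), and Dst, a cytoskeletal linker of the same structure (13.03 to 11.45). Trp63, the basal lineage transcription factor, stood at 9.41 in the naive and 10.07 in the HDM library, within 2-fold. Of 14 compared junction genes 7 were higher and 1 lower, with a median of 0.95. Desmoglein 3 (Dsg3) was at 6.05 to 8.51, desmoplakin (Dsp) at 11.86 to 13.56 and the tight junction scaffold Tjp1 at 7.02 to 8.65, whereas the suprabasal desmoglein Dsg1a was lower (11.22 to 10.06).

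Some protease and inhibitor genes of the surface layers stood high. Stefins are small inhibitors of cysteine proteases, and Stfa3 was at 6.33 in the naive and 14.67 in the HDM library, 327-fold (95% counting interval 264 to 409.5) higher. BC100530, a stefin A-like gene, was at 6.40 in the naive and 15.61 in the HDM library, and Stfa1 had 0 and 10905 reads. These genes lie at 36 to 37 Mb of chromosome 16, where 4 of 11 kept genes were 4-fold or more higher and 3 at 0 in KO naive, and they share sequence, so reads may be split among them. Among the kallikreins, serine proteases that cut the junctions of shedding corneocytes, Klk6 stood at 6.38 in the naive and 11.74 in the HDM library (41.5-fold higher, interval 33.6 to 51.8) and Klk10 at 7.53 in the naive and 10.97 in the HDM library. Klk7 was already abundant in naive skin (13.44 to 14.84). Matriptase (St14), which activates other surface proteases, was at 4.99 in the naive and 8.43 in the HDM library. Serpina12, a protease inhibitor known as vaspin, was the 1 lower member (9.79 to 6.70). The kallikrein and serpin list also held stefins, matriptase and other proteases and inhibitors. Of its 20 compared genes 8 were higher, 11 within 2-fold and 1 lower, with a median of 0.77. The 8 higher were BC100530, Stfa3, St14 and kallikreins, and none was a serpin. The 5 more at 0 in KO naive were Stfa1, Stfa2, Prss27, Spink12 and Wfdc18. Of the 25 kept, 10 reached the filter only in the HDM library.

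Host defence genes gave a mixed picture. Saa3, an acute phase protein, stood at 5.99 in the naive and 13.14 in the HDM library, 144-fold (95% counting interval 113 to 186) higher, against 9.84 and 13.51 in WT. Lipocalin 2 (Lcn2), which withholds iron from bacteria, was at 6.35 in the naive and 11.25 in the HDM library, 30.3-fold (95% counting interval 24.4 to 37.96) higher. The beta-defensins Defb1 (6.58 to 9.13) and Defb6 (10.26 to 12.26) were higher, whereas Lyz1, a lysozyme, was lower (10.004 to 4.67). Of the interleukin 1, 36, 17 and 20 axis, Il1b had 0 reads in KO naive and 997 in KO HDM, and Il19, an IL-20 family cytokine, 0 and 390. Among the 11 axis genes compared 3 were higher and 1 lower, with a median of 0.086. The higher ones were the receptor antagonist Il1rn (6.58 to 9.35), the IL-17 and IL-1 response factor Nfkbiz (7.93 to 10.27) and the IL-17 receptor adaptor Traf3ip2 (7.25 to 8.64), and the lower one the decoy receptor Il1r2 (10.78 to 7.86). The cytokines Il17a, Il17c and Il22 were at 0 reads in both libraries and Il17f at 0 and 2.72 on the log2 scale, below what this depth can compare. The neutrophil chemokines Cxcl5 (0 and 914 reads) and Cxcl2 (0 and 311) were at 0 in KO naive. Of the neutrophil genes, Mpo and Elane, made in immature neutrophils, were at 0 in both, and Cxcr2 (1.92 to 7.27), Csf3r (0.93 to 6.06) and Retnlg (0.00 to 6.39) did not reach the level filter in either library.

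Type 2 and itch genes were mostly below the level filter: 9 of 31 were kept. Il4, Il5 and Il31 had no read in either KO-labelled library, and Il13 was at 1.54 on the log2 scale in KO HDM. Ccl8, a chemokine that draws type 2 T cells, was higher (8.71 to 12.24, 11.5-fold, interval 10.4 to 12.7), as were F2rl1, the PAR2 receptor that mite proteases cut (6.99 to 8.61), and the shared IL-4 and IL-13 receptor chain Il4ra (7.96 to 9.41). F2rl1 and Il4ra reached the filter only in the HDM library. In WT F2rl1 had the other sign within 2-fold, at 7.69 and 7.195. Retnla, a type 2 effector made by macrophages and other cells, was lower (10.67 to 7.06), as was periostin, Postn (12.05 to 10.16), which in WT skin stood at 9.92 and 10.45. Tslp, the epithelial alarmin, was at 5.88 to 4.30 and under the filter, and Il33 was within 2-fold (8.16 to 8.84). Of 13 JAK-STAT genes 3 were higher (Socs3, 7.35 to 9.71; Stat6, 7.41 to 9.18; Socs6, 7.50 to 8.73) and 3 lower (Pim1, Socs7, Pias1), with a median of 0.31. Of 13 interferon-induced genes 3 were higher and 3 lower, with a median of -0.062: Ifitm1 was at 6.52 to 9.39 and B2m at 13.04 to 14.69, Gbp3 at 8.04 to 5.89 and Iigp1 at 8.31 to 6.51.

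Of 23 macrophage genes compared 0 were higher and 6 lower by 2-fold, with a median of -0.28. With WT naive in place of KO naive this median was 0.723, so its sign rests on the KO naive library. The summed reads of the list went the other way, 60908 in KO naive and 77304 in KO HDM, against 68965 and 54695 in WT. Most of them were of the lipid carrier Apoe, which macrophages share with other cells (35032 reads in KO naive and 58729 in KO HDM). The growth factor receptor Csf1r stood at 10.36 in the naive and 8.55 in the HDM library, 3.52-fold (95% counting interval 3.15 to 3.94) lower, Fcgr3 at 10.23 to 8.97 and the mannose receptor Mrc1 at 11.31 to 10.30. Over the same genes WT HDM against WT naive gave 11 higher and 1 lower (background 12.9% and 11.4%), with a median of 0.92, and this difference between genotypes was not tested. The naive libraries themselves differed here: Mrc1 was 11.31 in KO naive and 8.89 in WT naive, and 10.30 and 10.75 in the HDM libraries. For dendritic and Langerhans cells, 6 of 8 compared genes were lower and 0 higher, with a median of -1.39. Among these 8, 3 reached the filter only in the naive library, so their direction was fixed by the filter. The invariant chain Cd74 was at 14.05 to 11.29 and the class II chain H2-Ab1 at 13.44 to 11.08, both of antigen presentation. The C-type lectin Mgl2 was at 8.49 to 4.91. Langerin, Cd207, which defines Langerhans cells, was at 6.51 to 4.23, under the filter. Lymphocyte genes could not be described: 18 of the 21 in the table were under the filter, Cd3e at 6.32 to 4.50, and the kept Rora, Thy1 and Gata3 are also made by epidermal or stromal cells. Of 6 mast cell and eosinophil genes 2 were higher, the tryptase Tpsb2 (10.37 to 12.41) and Hdc (8.86 to 9.98), and 2 lower, Cpa3 (10.46 to 8.82) and Mcpt4 (12.10 to 11.08). In bulk skin, fewer cells of a type and less RNA per cell cannot be told apart.

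Proliferation genes stood higher. Of 34 compared cell cycle genes 22 were higher and 0 lower, with a median of 1.36, and 4 more were at 0 in KO naive. The replicative helicase subunits Mcm7 (3.49 to 9.36), Mcm2 (6.40 to 9.40) and Mcm5 (7.31 to 9.22), the mitotic ubiquitin-conjugating enzyme Ube2c (4.95 to 10.12, 37.2-fold, interval 26.2 to 54.6) and thymidine kinase Tk1 (5.93 to 10.21) were higher. In WT skin Mcm7 stood at 7.85 and 9.58 and Tk1 at 8.65 and 9.305, smaller differences. Top2a, which untangles DNA in dividing cells and was better detected in naive skin, was at 9.58 in the naive and 11.88 in the HDM library (4.94-fold higher, interval 4.58 to 5.33). Ccnb1, the mitotic cyclin, had 0 reads in KO naive and 716 in KO HDM, but 6.94 on the log2 scale in WT naive. Of the 38 kept, 22 reached the filter only in the HDM library, so their direction was fixed by the filter. The same genes in WT gave 16 higher and 0 lower, with a median of 0.94.

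Genes of the hair shaft and inner root sheath were scarce in KO naive and abundant in KO HDM. Of the 31 kept, 29 reached the filter only in the HDM library, so their direction was fixed by the filter. Among the 16 compared 15 were higher, with a median of 4.07, and 15 more were at 0 in KO naive. Krt71, an inner root sheath keratin, had 0 and 9828 reads (at least 3286-fold). Krt27, its type I partner, had 0 and 2504, and the shaft keratin Krt85 0 and 3374. Among those seen in both libraries, the cortex keratin Krt81 stood at 6.08 in the naive and 12.96 in the HDM library (119.5-fold higher, interval 94.6 to 153), trichohyalin (Tchh), the sheath and medulla protein, at 7.76 in the naive and 14.33 in the HDM library, and Krt25 at 7.28 in the naive and 14.02 in the HDM library. Hoxc13, a regulator of hair keratin genes, was at 6.79 to 9.01 and Msx2 at 7.14 to 9.25. Lhx2, a transcription factor of follicle progenitors that was singled out after its value was seen, had 0 and 829 reads. The same list in WT gave 15 higher and 1 lower of the 16, with a median of 5.42. By position these genes lie in blocks: at 99 to 100 Mb of chromosome 11, 9 of 29 kept genes were 4-fold or more higher and 14 at 0 in KO naive, with 1 lower (Krt24). At 89 to 90 Mb of chromosome 16, 9 of 11 kept genes, among them Krtap8-1 and Krtap11-1, were at 0 in KO naive. Hair had been removed from the treated area, and the growth stage of the follicles is not given in the sources used here.

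**Figure D3:**
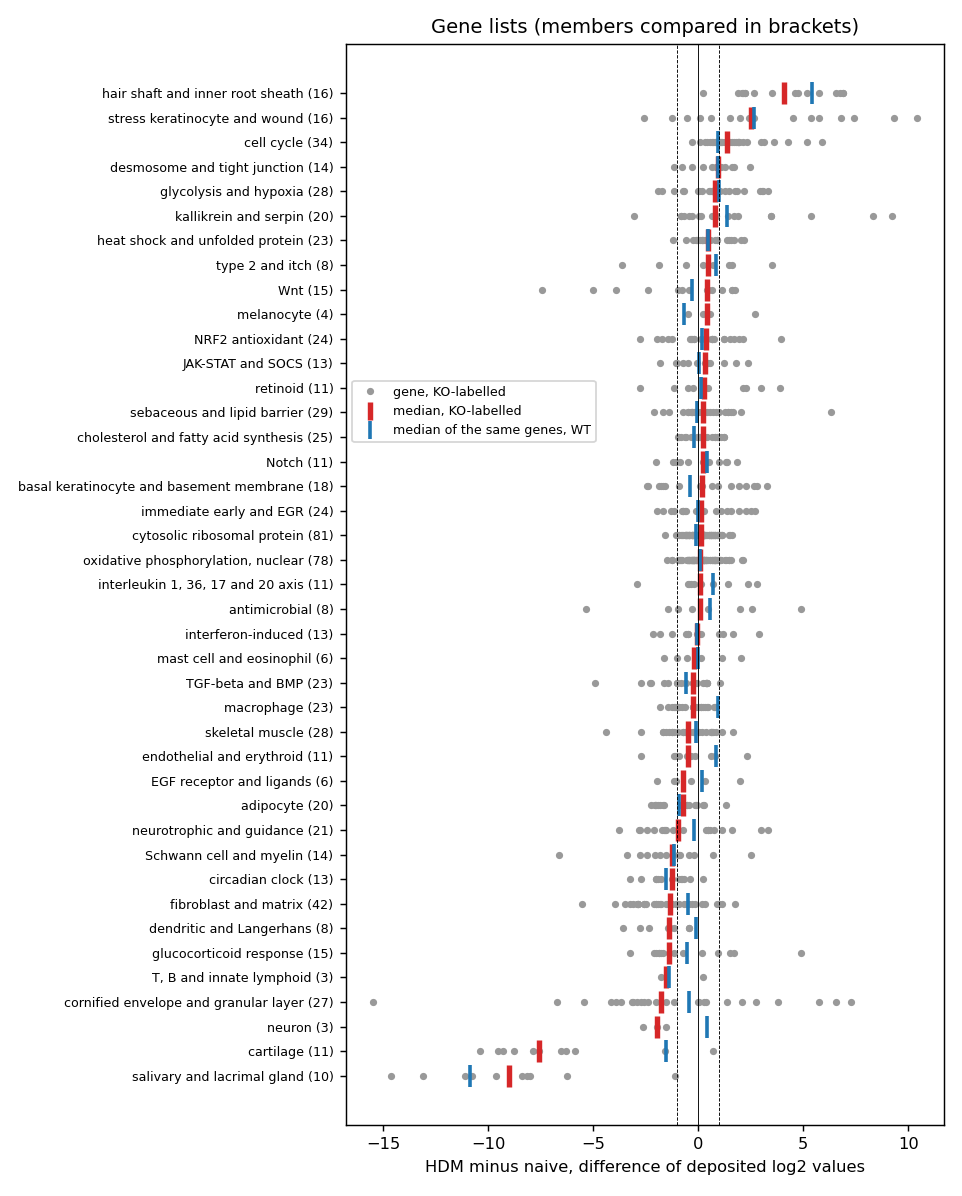
Log2 difference KO HDM minus KO naive (horizontal) for the compared members of the gene lists drawn (vertical), 1 grey point per gene, with the KO-labelled median in red and the WT median of the same genes in blue. Hair genes, stress keratinocyte genes and cell cycle genes lie mostly to the right of 0. Matrix, cartilage, gland and dendritic genes lie mostly to the left, and the cornified envelope list spans both sides.

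The lipid lists had small medians. Of 29 sebaceous and barrier lipid genes 8 were higher, 3 lower and 18 within 2-fold, with a median of 0.23. Pnpla1, needed for acylceramides of the barrier, was at 1.92 in the naive and 8.25 in the HDM library with 3 reads in the naive library (WT 7.27 and 8.93). The fatty acid elongases Elovl3 (10.01 to 12.05) and Elovl4 (11.34 to 12.73) and the ceramide synthase Cers3 (7.86 to 9.49) were higher. In WT Elovl3 stood the other way, at 11.87 and 9.88, so it was lower there by 2-fold or more. The desaturase Scd1, a sebocyte gene, was lower (16.26 to 14.17, 4.26-fold, interval 4.2 to 4.33). Of 25 genes of cholesterol and fatty acid synthesis 3 were higher (Nsdhl, Mvd, Cyp51) and 0 lower, with a median of 0.22. Among 28 glycolysis and hypoxia genes 10 were higher and 3 lower, with a median of 0.81: the lactate exporter Slc16a3 stood at 7.12 to 10.19, the angiogenic factor Vegfa at 6.31 to 9.32, pyruvate kinase Pkm at 10.80 to 12.98 and carbonic anhydrase Car12 at 7.58 to 10.91. The 78 nuclear genes of oxidative phosphorylation (10 higher, 3 lower, median 0.099) and the 81 cytosolic ribosomal protein genes (7 higher, 2 lower, median 0.12) stood near the median of all genes. Of 23 heat shock and unfolded protein genes 6 were higher and 1 lower, with a median of 0.46, the mitochondrial chaperonin pair Hspe1 (8.58 to 10.74) and Hspd1 (10.05 to 11.63) among them. NRF2 target genes were split, 7 higher and 5 lower of 24. The glutathione synthesis subunit Gclm stood at 4.49 to 8.44 (WT 8.03 and 8.04) and the cystine carrier Slc7a11 at 0 and 407 reads. Nqo1, a common NRF2 readout, was lower (8.24 to 5.46).

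EGR1 belongs to the immediate early genes, and of 24 such genes compared 7 were higher and 4 lower, with a median of 0.12. Egr2, the paralog of EGR1 that also drives myelination, stood at 7.08 in the naive and 9.57 in the HDM library (5.63-fold higher, interval 4.71 to 6.77), against 8.76 and 8.71 in WT. Nab2, a corepressor that binds EGR proteins, was at 6.92 in the naive and 8.84 in the HDM library. Junb was at 9.17 to 11.44, and Jun at 8.73 to 9.80. Fos (10.57 to 9.39) and Fosb (8.55 to 6.86) were lower, as was Ctgf (12.75 to 10.76). Thus the AP-1 subunits did not stand in one direction.

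Nerve-related transcripts that passed the filter were more often lower than higher. Of 21 neurotrophic and guidance genes 10 were lower and 4 higher, with a median of -0.98, and that sign depends on the filter (0.39 when it is taken from the WT libraries). Of the 21, 10 reached the filter only in the naive library and 4 only in the HDM library, so their direction was fixed by the filter. Sema3a, a secreted repellent of sensory axons, was at 8.43 in the naive and 4.67 in the HDM library, 14.1-fold (95% counting interval 9.47 to 21.9) lower, against 4.72 and 6.43 in WT. The neurotrophin receptors Ntrk2 (10.54 to 7.74) and Ngfr (9.08 to 6.65) and the GDNF family ligand neurturin, Nrtn (9.22 to 7.60), were lower. Higher were the semaphorin co-receptor Plxna2 (5.55 to 8.87, WT 8.18 and 8.575) and the ephrin Efnb2 (6.01 to 9.01, WT 8.42 and 7.96). For both, the KO naive library was the low one. Gdnf stood at 0 in naive and 4.82 in HDM skin, below the filter. Of 28 neuron genes 4 were kept, and the 3 compared (Stmn2, 9.21 to 6.58; Uchl1; Thy1) were lower. Of the 4 kept, 2 reached the filter only in the naive library and 1 only in the HDM library. The sensory neuron genes Trpa1, Tac1, Mrgprd and Scn10a were at 0 reads in both libraries; the cell bodies of sensory neurons lie in ganglia outside the skin. Of 14 Schwann cell and myelin genes 7 were lower and 1 higher (Egr2), with a median of -1.25. Of the 14, 6 reached the filter only in the naive library and 1 only in the HDM library, so their direction was fixed by the filter. S100b stood at 12.89 in the naive and 6.27 in the HDM library (99.8-fold lower, interval 80.2 to 126) and is also a cartilage gene. Myelin basic protein, Mbp, stood at 11.05 to 8.25.

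Matrix genes were lower as a group. Of 42 compared fibroblast and matrix genes 27 were lower and 2 higher, with a median of -1.37. All 46 listed genes, kept or not, summed to 698305 reads in KO naive and 127171 in KO HDM, against 402612 and 141590 in WT. The fibrillar collagens Col1a1 (17.32 in the naive and 14.19 in the HDM library, 8.75-fold lower, interval 8.62 to 8.88), Col1a2 (16.18 to 13.27) and Col3a1 (16.22 to 12.75) were among the most abundant transcripts of naive skin. Sparc, a collagen-binding protein, was at 17.03 to 14.17 and elastin, Eln, at 12.98 to 9.002. Fibromodulin, Fmod, a tendon and cartilage proteoglycan, was at 11.41 to 5.86. The fibroblast markers Pdgfra (9.73 to 9.41) and Lum (11.26 to 10.78) were within 2-fold. Higher were Col12a1 (6.81 to 8.54) and the protease inhibitor Timp1 (7.04 to 8.15). In WT the 42 compared genes gave 15 lower and 6 higher, with a median of -0.51.

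Most cartilage transcripts stood far lower in the KO HDM library. Of the 20 listed genes in the table, 11 were kept. Of these, 10 reached the filter only in the naive library, so their direction was fixed by the filter, and 10 were lower by 2-fold. The median was -7.61. All 20 genes, kept or not, summed to 30920 reads in KO naive and 5797 in KO HDM, against 36197 and 20433 in WT. Chondroadherin, Chad, stood at 11.34 in the naive and 0.94 in the HDM library, 2765 reads against 1, and at 12.31 and 10.80 in WT. Cytl1, a secreted protein of cartilage, was at 13.97 in the naive and 4.67 in the HDM library (656-fold lower, interval 448 to 1005), and at 14.15 and 13.61 in WT. Aggrecan, Acan, was at 10.81 in the naive and 4.91 in the HDM library, and the collagen IX chains Col9a1, Col9a2 and Col9a3 at 8.80 to 0.00, 9.12 to 1.51 and 10.38 to 3.82. Sox9, which hair follicles also make, was the exception at 11.65 to 12.34. Of the defining marker Col2a1, 3.995 and 0.00 were the log2 values in the KO-labelled libraries. The ear holds a cartilage plate and the neck does not, and the share of each site per library is not given in the sources used here. Whether that share moved with the other lists was not tested.

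Salivary and lacrimal gland transcripts, foreign to skin, were present in both naive libraries. Of the 28 listed genes in the table, 10 were kept, 9 of them only through the naive library, and all 10 were lower in KO HDM (median -9.01). All 28 genes, kept or not, summed to 87334 reads in KO naive and 913 in KO HDM, and to 734845 and 1097 in WT. Bpifa2, a parotid secretory protein, had 44930 and 4 reads, and Smr3a, a submandibular gland prohormone-like gene, 27619 and 0. Pip and Dcpp1, further gland secretory products, had 1852 and 837 reads in KO naive and 0 in KO HDM. Chia1, an acidic chitinase, had 3973 and 0 reads. Car6, a secreted carbonic anhydrase of saliva, was the kept gland gene still well detected in KO HDM (10.53 to 9.44). Gland RNA was thus far higher in both naive libraries than in both HDM libraries, and its part in other differences was not tested.

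Adipocyte and muscle genes were also more often lower than higher. Of 20 adipocyte genes 8 were lower and 1 higher, with a median of -0.74. Adiponectin, Adipoq, stood at 11.91 in the naive and 9.65 in the HDM library (4.79-fold lower, interval 4.45 to 5.16) and the fatty acid carrier Fabp4 at 14.66 to 12.65, while Lipe, hormone-sensitive lipase, was higher (9.50 to 10.82). With WT naive in place of KO naive the adipocyte median was -0.135, and Fabp4 took the other sign. Of 28 skeletal muscle genes 9 were lower and 2 higher, with a median of -0.50. With WT naive in place of KO naive this median was 0.01, so its sign rests on the KO naive library. The slow muscle light chain Myl2 was at 8.58 to 4.16 and Pvalb at 12.45 to 10.78, and actin Acta1 was within 2-fold (13.41 to 13.77). Of 11 endothelial and erythroid genes 1 was higher, the endothelial adhesion molecule Pecam1 (6.21 to 8.52), and 3 lower, all globins, with a median of -0.52. Of 4 melanocyte genes the pigment enzyme Tyrp1 was higher (5.81 to 8.51) and the others were within 2-fold.

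Glucocorticoid-responsive and clock genes were lower in the majority. Of 15 glucocorticoid response genes 9 were lower and 3 higher, with a median of -1.41. Among these 15, 4 reached the filter only in the naive library and 1 only in the HDM library, so their direction was fixed by the filter. Klf9 was at 11.43 in the naive and 9.30 in the HDM library (4.36-fold lower), Fkbp5, a chaperone of the receptor, at 10.05 to 8.19, Zbtb16 at 8.34 to 6.45 and the receptor Nr3c1 itself at 10.79 to 9.09. The higher members were Lcn2 and the metallothioneins Mt1 (11.94 to 13.46) and Mt2 (11.70 to 13.39), which inflammation and zinc also induce. For Fkbp5 the KO naive library stood apart, at 10.05 against 7.66 and 7.80 in WT naive and WT HDM. With WT naive in place of KO naive the list median was 0.096, so its sign rests on the KO naive library. Of 13 clock genes 7 were lower and 0 higher, with a median of -1.25 (-1.54 in WT). Among these 13, 5 reached the filter only in the naive library, Hlf, Per1 and Cry2 included, and 1 only in the HDM library. Their direction was fixed by the filter. The output factors Dbp (11.33 to 8.59) and Hlf (10.14 to 6.86) and the repressors Per1 (9.55 to 7.51) and Cry2 (8.95 to 6.94) were lower, and Arntl, the core activator, was under the filter (7.19 to 6.18). The hour at which each skin was taken is not given in the sources used here.

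Among signalling genes of skin development, the Notch and Wnt lists held as many higher as lower genes and the TGF-beta and BMP list more lower ones. Of 11 Notch genes 3 were higher, the target Hes1 (8.03 to 9.88) first, and 3 lower, the modifier Mfng (8.62 to 6.61) first. Of 15 Wnt genes 4 were higher, among them the stem cell receptor Lgr5 (7.52 to 9.11), and 4 lower. The lower ones included Fzd9 (9.95 to 2.50, 211-fold, interval 90.01 to 650.3) and the extracellular inhibitors Wif1 (12.68 to 8.74) and Dkk2 (10.74 to 8.33). Of 23 TGF-beta and BMP genes 8 were lower and 1 higher, with a median of -0.27. The BMP antagonist Nog was at 9.34 to 4.43, the ligand Tgfb2 at 8.66 to 6.34 and the latency protein Ltbp1 at 10.11 to 7.38. Of 6 EGF receptor and ligand genes Hbegf was higher and Ereg (8.63 to 6.65), Errfi1 and Erbb2 were lower, while the ligand Epgn had 0 and 1209 reads. Of 11 retinoid genes 4 were higher, among them the binding protein Crabp2 (9.51 to 11.80), and 2 lower, Rbp4 (9.92 to 7.15) and Aldh1a1 (8.98 to 7.82).

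The WT pair shares no library with the KO pair. Over the same 7551 genes WT HDM minus WT naive gave 973 higher (12.9%) and 862 lower (11.4%), with a median of 0.042. The genes were kept by their KO values, which favours large differences in the KO pair. Higher in both were 521 genes, 36.3% of those higher in KO and 53.6% of those higher in WT. Lower in both were 539, which is 38.2% and 62.5%. Opposite in direction by 2-fold or more were 17 genes higher in KO and lower in WT, and 49 lower in KO and higher in WT. Among the 7315 genes above 0 in all 4 libraries, the KO difference exceeded the WT difference by 4-fold or more for 247 (3.38%) and was below it by as much for 290 (3.96%). With 1 library per group this difference of differences has no test, and any single library can set it.

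**Figure D4:**
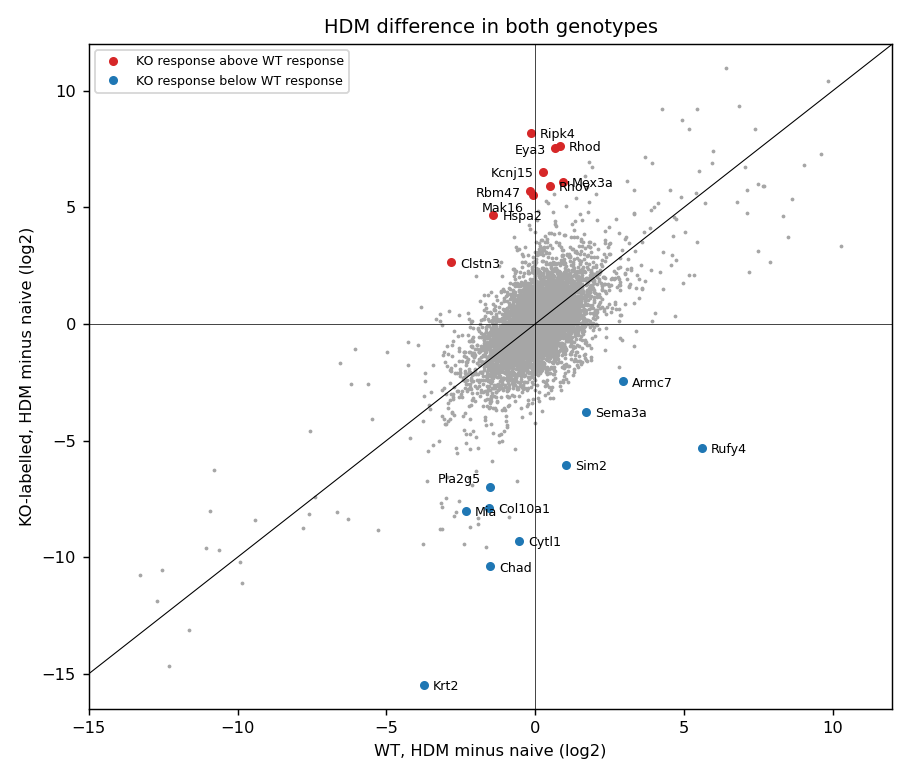
Log2 difference HDM minus naive in WT skin (horizontal) and in KO-labelled skin (vertical) for the compared genes, with the diagonal marking equal differences. Named red points are those with a KO difference furthest above the WT difference, led by Ripk4, and blue points those furthest below, led by Krt2.

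Among the 10 genes whose KO difference stood furthest above WT, Ripk4, a kinase needed for epidermal differentiation, was at 0.94 in the naive and 9.12 in the HDM library and at 8.77 and 8.62 in WT naive and WT HDM. It had 1 read in KO naive and 590 in KO HDM, 592-fold (95% counting interval 106 to 23418) higher. Rhod, a small GTPase, stood at 0.93 to 8.58 (WT 7.63 and 8.45) and Eya3, a phosphatase and transcriptional coactivator, at 0.93 to 8.46 (WT 7.37 and 8.05). Kcnj15, Rbm47, Mak16, Rhov and Mex3a had 3 to 11 reads in KO naive. In each of these 8 the KO naive library was the low one, and the other 3 libraries lay closer together. Hspa2, a heat shock 70 family member, stood at 4.30 in the naive and 8.99 in the HDM library and at 9.11 and 7.70 in WT, and Clstn3 at 5.86 to 8.51 (WT 8.46 and 5.63). Over all compared genes 67 had a KO naive value 3 or more below WT naive, and 54 of these were among the 1434 higher genes.

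Among the 10 genes furthest below WT, the KO HDM library was the low one for Krt2, Chad, Cytl1, Col10a1, Mia and Pla2g5. Col10a1, a collagen of hypertrophic cartilage, stood at 9.38 to 1.51 (WT 9.45 and 7.90) and Mia, a secreted protein of cartilage, at 10.51 to 2.50 (WT 9.56 and 7.24). Rufy4 stood at 9.46 in the naive and 4.16 in the HDM library, and at 3.40 and 8.98 in WT, so the naive libraries and the HDM libraries differed in opposite directions. Sim2, a transcription factor, stood at 8.55 in the naive and 2.50 in the HDM library and at 5.17 and 6.20 in WT. Armc7 stood at 8.01 to 5.55 (WT 3.88 and 6.83). Of the compared genes, 36 had a KO HDM value 3 or more below WT HDM, and 42 a KO naive value 3 or more above WT naive.

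**Figure D5:**
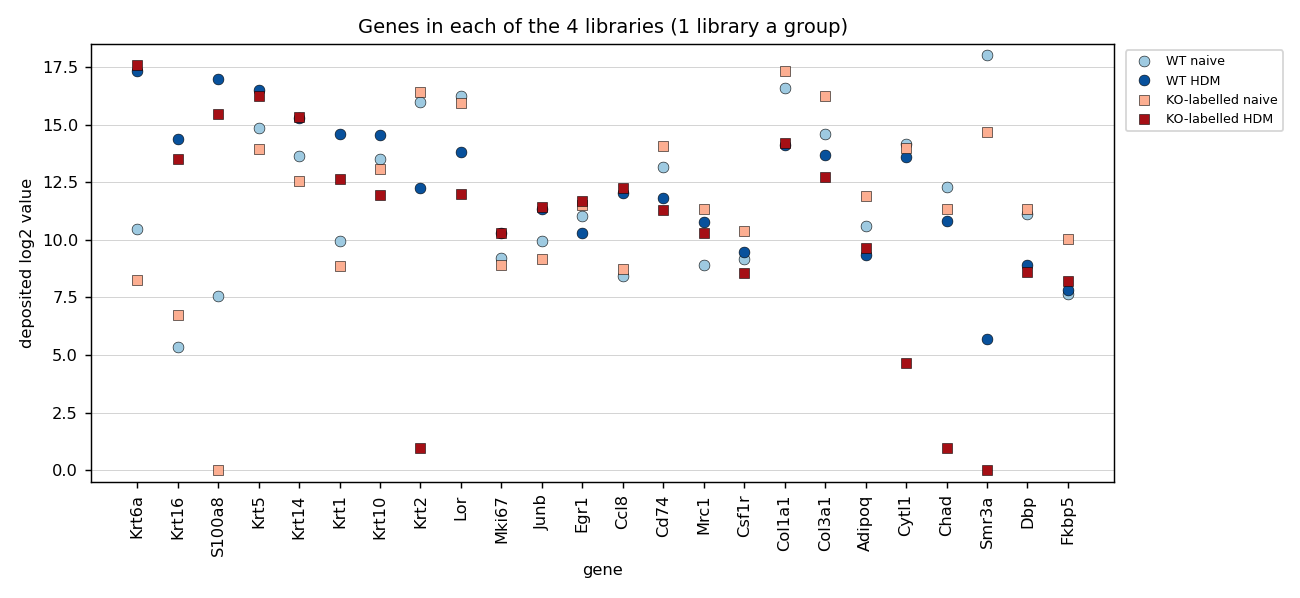
Deposited log2 values of selected genes in each of the 4 libraries, 1 point per library, with no error bar since each group held 1 library. Krt6a and Krt16 are high in both HDM libraries, Krt2 and Chad are near 0 in KO HDM and above 10 in the other 3 libraries, S100a8 is at 0 in KO naive, and Smr3a is high in both naive libraries.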

How the data were processed

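RNA of mouse skin was profiled with a 3′ RNA sequencing kit in 4 libraries, 1 per group. Samples were grouped by the genotype and treatment labels. The tables that the authors deposited, 1 per library, hold log2 values on 23282 lines. Per the submitters' processing notes the tools were Bowtie2 and bedtools and the build was mm10, with no version given. How values were normalized is not given in the sources used here, nor is the annotation.

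Low values, converted by 2 to the power of the deposited log2 value minus 1, fell on whole multiples of a step per library, so reads were recovered by dividing by it. Of the genes with up to 200 reads, 99.98% or more in each library came out whole within 0.2 read. Intervals on read ratios are exact 95% Clopper-Pearson intervals, scaled by the steps, and cover counting error only. Symbols on more than 1 line were dropped (35 symbols on 79 lines). Genes were kept at a log2 value of 8 or more in at least one KO-labelled library. No test was run, and no count model was fitted, since each group held 1 library.

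Named were the 15 largest differences in each direction, the 10 highest genes at 0 in either KO-labelled library, the 4 largest differences of each of 43 gene lists, the 10 genes in each direction with the largest difference between genotypes, and Egr1, Artn and Xist. Sex-linked and clone-named symbols were left out of the first. Further members of a list given as examples were chosen after their values were seen. The comparison, the gene lists and their members were chosen with earlier results of these data known. Gene positions came from the GRCm38 annotation for 7629 kept genes, and promoter windows from RefSeq (GRCm38.p6) for 5899. The alternatives were other level filters, a 4-fold threshold, scaling to equal library totals, centring on the median, a pseudocount of 16 in place of 1, genes at 0 entered at 3 reads, and, chosen after seeing the data, WT naive in place of KO naive and leaving out genes low in KO naive. The calculation was tested on simulated data. Python 3.11.15 was used with numpy 2.4.6, pandas 2.3.3, scipy 1.17.1 and matplotlib 3.10.9. A few genes of the lists are not reported here by name.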

Additional observations from a re-analysis of the deposited data

Results flagged for a closer look

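The following stood in opposite directions in KO-labelled and WT skin by their single libraries, and the difference between genotypes was not tested. The median difference, HDM minus naive, of the endothelial and erythroid list was -0.517 in KO-labelled skin and 0.822 over the same genes in WT. Hspa2, a heat shock 70 family member, was at 4.69 in KO-labelled and -1.41 in WT skin, its KO naive value of 4.30 being the lowest of the 4 libraries. Clstn3, a synaptic and adipocyte membrane protein, was at 2.65 and -2.83. Rufy4, an autophagy regulator of dendritic cells, was at -5.31 and 5.59. Sim2, a basic helix-loop-helix transcription factor, was at -6.05 and 1.03. Sema3a, the axon repellent, was at -3.77 and 1.71. Armc7 was at -2.45 and 2.95. These genes are among those with the largest differences between genotypes, chosen for that difference.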

How the results depend on the processing

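No paired analysis was possible because each group held 1 library, so that the groups shared 1 replicate number at most, and leaving out a replicate was not possible for the same reason. The counts of higher and lower genes, 1434 and 1412 as reported, were 2629 and 2874 with no level filter, 447 and 440 at a log2 value of 10 or more, 439 and 456 at a 4-fold threshold, and 844 and 748 with WT naive in place of KO naive. The median over kept genes, 0.014, was 0.128 when the filter came from the WT libraries. Of 329 list medians under another setting, 278 moved by less than 0.5, 47 moved by 0.5 or more, and 4 that were 0.5 or more in size as reported took the other sign. These were the cornified envelope list, 0.037 with its zeros at 3 reads, the neurotrophic and guidance list, 0.393 with the filter from the WT libraries, and, with WT naive in place of KO naive, the glucocorticoid response list, 0.096, and the EGF receptor and ligand list, 0.089. Of the 21 lists with a reported median under 0.5 in size, 10 took the other sign under some setting, 15 medians in all. Of these 15, 4 were 0.5 or more in size: at a log2 value of 10 or more, Wnt (-2.41), type 2 and itch (-1.89) and JAK-STAT and SOCS (-0.507), and with WT naive in place of KO naive, macrophage (0.723). The cause of these was not tested. Of 188 named genes, 0 reversed under scaling to equal library totals, centring on the median or a pseudocount of 16. With WT naive in place of KO naive 12 did: Hspa2, Rbm47, Rufy4, Armc7, Postn, Gbp3, Gsr, Uchl1, Cfd, Fabp4, Errfi1 and Erbb2. The genes whose HDM difference differed by 4-fold or more between genotypes numbered 537, 427 with a pseudocount of 16, and 481 without the genes low in KO naive. Genes under about 8 on the log2 scale were limited most by the KO naive library, where reads were missing that the other libraries held.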

Other observations

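A few further genes, singled out after their values were seen, stood far from 0 in the KO comparison. Atp12a, a proton and potassium pump, was at 4.95 in the naive and 11.07 in the HDM library and Etv4, an ETS transcription factor downstream of growth factor signals, at 2.72 in the naive and 8.10 in the HDM library. Chil1, a chitinase-like protein of inflamed tissue, was at 7.50 in the naive and 12.01 in the HDM library, and the gap junction gene Gja1 (connexin 43) at 8.19 in the naive and 12.15 in the HDM library. Gsdmc, a pore-forming gasdermin of epithelia, had 0 reads in KO naive and 2140 in KO HDM, and Zc3h12a, an RNase that degrades inflammatory mRNAs, 0 and 863. Saa1, an acute phase protein, had 0 and 366.

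On the lower side, Slurp1, a secreted protein of the granular layer, was at 9.66 in the naive and 4.30 in the HDM library, and Serpinb7, a protease inhibitor of the upper epidermis, at 8.18 in the naive and 3.50 in the HDM library. The epidermal T cell selection gene relatives Skint9 (8.58 to 4.30) and Skint10 (8.52 to 3.82) were lower. Frzb, a secreted Wnt inhibitor (11.94 to 4.08), and Gdf5, a growth factor of joints (8.38 to 0.00), stood low in KO HDM, as did Tlx1 (8.30 to 0.00) and Myoc (13.98 to 6.29). These are values of 1 library per group.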
